A study of Homo sapiens with 6 samples.

Results

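The genes described here encode the pore-forming alpha subunits of the voltage-gated sodium channels. They were taken by name: SCN1A, SCN2A, SCN3A, SCN4A, SCN7A, SCN8A, SCN9A, SCN10A and SCN11A, which are 9 of the 20037 protein-coding genes on chromosomes 1 to 22, X and Y. A further gene of the family was not analysed here. Every deposited peak that overlapped a gene body, or the 5 kb on either side of it, was assigned to that gene. CUT&RUN, the assay used, tethers a nuclease to antibody-bound chromatin and sequences the fragments that are cut free. MYT1L was targeted in 4 libraries, and IgG, which has no chromatin target, gave the background in 2. All 6 come from the human embryonic stem cell line H1 (WT) and carry the time point of day 30. The series' design text calls the cells cortical interneurons derived from stem cells, whereas the labels of the samples name embryonic stem cells, the starting material. All libraries derive from 1 cell line, and the labels do not say whether they came from separate differentiations, so p-values measure only the spread between these libraries. Peak positions hold no measure of expression, so the labelled cell type could not be checked against marker genes.

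The alpha subunit of a voltage-gated sodium channel forms the whole ion pore in a single large protein. It opens when the membrane depolarizes, and the sodium current that follows is the rising phase of the action potential. SCN1A, SCN2A, SCN3A and SCN8A are best known from the central nervous system, SCN9A, SCN10A and SCN11A from peripheral sensory neurons, SCN4A from skeletal muscle, and SCN7A as a sodium-sensing relative. MYT1L is a zinc-finger transcription factor of postmitotic neurons that is known mainly for repressing genes of other lineages.

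On chromosomes 1 to 22, X and Y, the only ones used, the deposited lists held 12310 to 30086 peaks in the MYT1L libraries. The IgG libraries had 976 and 998 there. Total reads are unknown. From the peaks' own values, the genome-wide background was estimated at 2.25 to 5.99 fragments per kb in the MYT1L libraries and at 1.55 and 0.949 in IgG replicates 1 and 2, so the controls were shallower. Inside the 4 MYT1L lists the peak names carry sample numbers that are 1 higher than in the sample titles. The titles were followed, for the antibody as for the number.

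MYT1L peaks lay at the gene starts of SCN8A, SCN9A and SCN11A in 3 or all 4 libraries. Of protein-coding genes with a listed start, 42.2% had joined peaks of at least 3 libraries there, without IgG peak. The summits at the SCN11A start lay within the neighbouring gene WDR48. No IgG peak lay at any of the 9 genes, and only 4.16% of all protein-coding genes had one. SCN1A and SCN3A had no peak in any library, whereas 84.1% of all protein-coding genes had a MYT1L peak in at least 1. SCN2A, SCN4A and SCN10A had only peaks that a single library held. SCN7A had a weak peak at its start in 2 libraries. Per Mb of gene, the family held fewer MYT1L peaks than protein-coding genes as a whole in all 4 libraries.

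MYT1L replicates 1 to 4 had 10, 3, 6 and 9 peaks at the 9 genes, and both IgG libraries had 0. Each MYT1L library therefore had more than either control, and replicate 2, with the shortest of the 4 lists, had the fewest. The mean was 7.0 ± 3.16 (SD, n = 4) against 0 (n = 2). By a two-sided exact permutation test this gave p = 0.133, which no arrangement of 4 against 2 libraries can go below. At the peak density that each IgG library had over all protein-coding genes, the 9 genes would hold 0.278 and 0.465 peaks, fewer than 1 in each. Thinned to the depth of IgG replicate 1, the MYT1L peaks at these genes were expected to number 1.41, 1.93, 1.71 and 3.49 in replicates 1 to 4. Thinning to IgG replicate 2 left 0.683, 1.07, 0.924 and 2.42 expected peaks. As expectations for peaks already called, these numbers are always above 0.

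**Figure D1:**
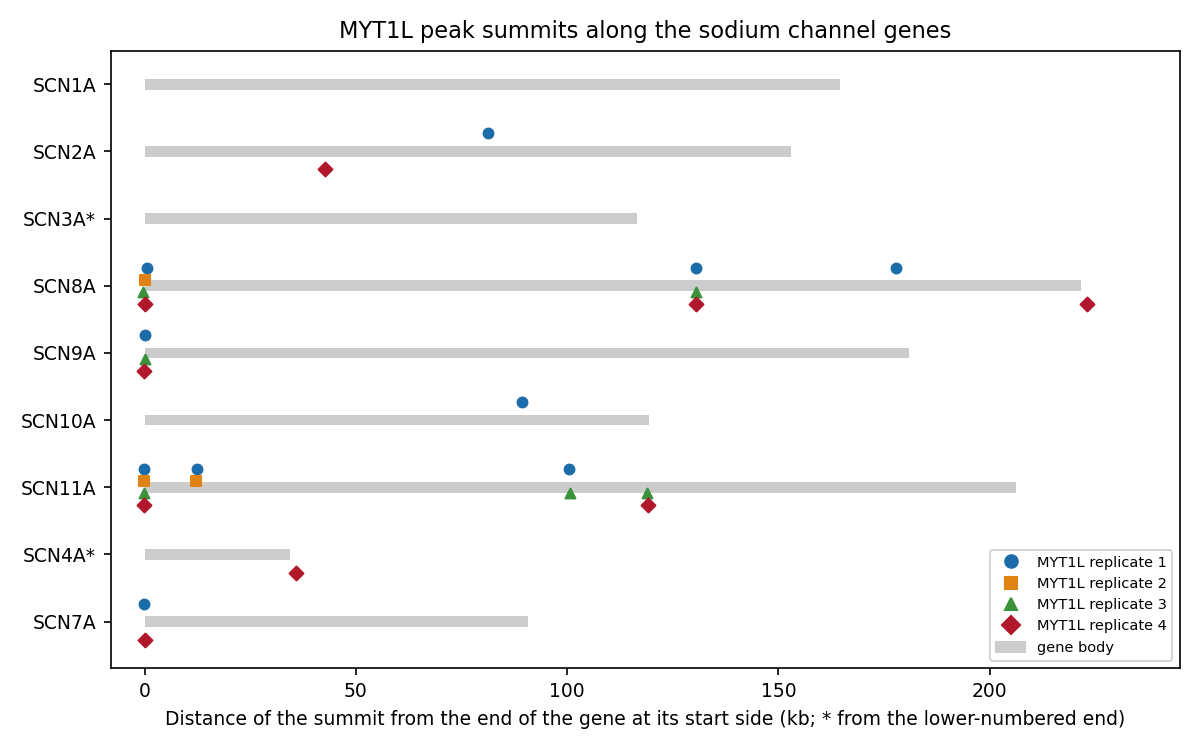
MYT1L peak summits along each sodium channel alpha gene, as distance in kb from the end of the gene at its start side (or, marked *, from the lower-numbered end where no start is listed). Grey bars are gene bodies and each symbol is a peak of 1 MYT1L library; SCN1A and SCN3A are empty, and symbols of 3 or 4 libraries stack at the starts of SCN8A, SCN9A and SCN11A.

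The sequences before 6 of the gene starts are shown because their CpG content differed between starts with reproducible peaks and those without. They are the bases before a start, not the sequence under the summits. The summits at the starts of SCN8A and SCN11A all lay outside the bases printed. The printed bases are RefSeq sequences of GRCh38.p14, given 5′ to 3′ on the strand of the gene, with every CpG dinucleotide in capitals. The first is that of SCN8A (chr12:51590983-51591232, plus strand), followed by SCN9A (chr2:166375945-166376194, minus strand). For SCN11A only the 71 bases up to the divergent gene WDR48 are given (chr3:39051945-39052015, minus strand). SCN7A (chr2:166494250-166494499, minus strand) had weak peaks in 2 libraries, and SCN1A (chr2:166149162-166149411, minus strand) and SCN2A (chr2:165239164-165239413, plus strand) had none.
SCN8A: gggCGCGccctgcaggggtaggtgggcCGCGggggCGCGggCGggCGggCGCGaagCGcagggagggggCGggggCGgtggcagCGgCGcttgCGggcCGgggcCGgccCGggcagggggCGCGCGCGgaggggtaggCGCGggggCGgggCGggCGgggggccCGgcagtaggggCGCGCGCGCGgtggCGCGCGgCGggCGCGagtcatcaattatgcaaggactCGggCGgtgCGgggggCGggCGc
SCN9A: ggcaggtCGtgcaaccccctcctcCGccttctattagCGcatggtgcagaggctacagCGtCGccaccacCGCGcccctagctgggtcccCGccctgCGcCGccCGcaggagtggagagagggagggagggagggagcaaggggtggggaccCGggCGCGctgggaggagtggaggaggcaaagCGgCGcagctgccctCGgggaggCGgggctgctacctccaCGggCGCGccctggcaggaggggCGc
SCN11A: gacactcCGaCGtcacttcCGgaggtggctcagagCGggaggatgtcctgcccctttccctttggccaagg
SCN7A: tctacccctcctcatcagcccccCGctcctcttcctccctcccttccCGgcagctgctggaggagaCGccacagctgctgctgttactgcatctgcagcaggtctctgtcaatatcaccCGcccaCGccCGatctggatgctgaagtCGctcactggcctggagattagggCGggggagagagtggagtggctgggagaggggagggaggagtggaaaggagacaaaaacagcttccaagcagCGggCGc
SCN1A: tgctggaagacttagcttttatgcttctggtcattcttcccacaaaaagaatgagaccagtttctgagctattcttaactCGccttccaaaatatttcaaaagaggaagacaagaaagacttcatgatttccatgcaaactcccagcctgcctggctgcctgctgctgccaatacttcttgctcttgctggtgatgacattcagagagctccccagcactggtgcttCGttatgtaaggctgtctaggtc
SCN2A: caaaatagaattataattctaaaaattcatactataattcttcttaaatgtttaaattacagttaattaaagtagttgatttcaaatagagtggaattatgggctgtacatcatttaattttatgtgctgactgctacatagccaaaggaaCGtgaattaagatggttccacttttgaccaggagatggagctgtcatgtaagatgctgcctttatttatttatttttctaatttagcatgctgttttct
The capitals crowd the SCN8A and SCN9A sequences, with 45 and 22 CpG in 250 bases, and SCN11A has 4 in its 71 bases. SCN7A has 10 in 250 bases, SCN1A has 2 and SCN2A has 1.

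Among the genes of the central nervous system, SCN8A, whose channel gathers at the axon initial segment and at nodes of Ranvier, carried the most peaks. SCN8A lies on chromosome 12 from 51591233 to 51812864 (222 kb, plus strand). It had 3, 1, 2 and 3 peaks in MYT1L replicates 1 to 4. At its start, the region from 51590556 to 51591913 held a peak in all 4 libraries. There the authors' fold enrichment over background was 4.92, 5.38, 7.38 and 9.79 in replicates 1 to 4, or 6.87 ± 2.22 (SD, n = 4). The summits rested on 13, 7, 17 and 35 fragments by the estimated pileup, the number of overlapping fragments at a summit, and lay from 290 bp before to 554 bp after the start. Replicate 4 was the highest, and the folds of replicates 3 and 4 stood at percentiles 90.0 and 89.0 of their own lists, against 49.9 and 44.6 for replicates 1 and 2. The 4 summits were spread over 844 bp.

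A second region of SCN8A, from 51721590 to 51721932, lay inside the gene, 130 kb after the start. It held peaks of replicates 1, 3 and 4, with folds of 5.04, 5.64 and 4.75, or 5.14 ± 0.453 (SD, n = 3), and with 10, 11 and 8 fragments. Its summits agreed within 90 bp, closer than at the start. The fold was lower than at the start in replicates 3 and 4 and slightly higher in replicate 1. The gene table gives no exons, so the position within an exon or an intron was not assigned. A peak of replicate 1 at 51768847 to 51769059 (fold 4.06) and one of replicate 4 at 51814206 to 51814561 (fold 6.08) had no partner in another library. The latter lay beyond the end of SCN8A and within the neighbouring gene TMDD1.

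SCN2A, the sodium channel of early axon initial segments in many central neurons, lies on chromosome 2 from 165239414 to 165392304 (plus strand). It had 1 peak in MYT1L replicate 1, with a fold of 5.04 at 165320599 to 165320817, and 1 in replicate 4, with a fold of 4.75 at 165282036 to 165282226. The peaks lay 79.5 and 41.0 kb from the nearer of the 2 listed starts and did not overlap, and replicates 2 and 3 had none. They rested on 10 and 8 fragments over the genome-wide background, the same numbers as the peaks of these libraries inside SCN8A, which is why their folds are the same.

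SCN1A, the channel most closely tied to the firing of cortical interneurons and mutated in Dravet syndrome, had 0 peaks in each of the 6 libraries. It lies on chromosome 2 from 165984641 to 166149161 (165 kb, minus strand). SCN3A, which is expressed most strongly in the fetal brain, also had 0 peaks in each library (chromosome 2, 165087526 to 165204050, 117 kb). At the density of all protein-coding genes the 4 MYT1L lists together would hold 7.66 peaks at a gene of the length of SCN1A and 5.55 at one of the length of SCN3A. These numbers spread peaks evenly by length. In the 4 MYT1L libraries, however, 54.3% to 63.7% of peaks at all genes lay within 1 kb of a start. Of genes within the length range of the family, from 34.4 to 222 kb, 93.5% had a peak in at least 1 MYT1L library, and 84.1% of all protein-coding genes did. Of the 9 sodium channel genes, 7 did.

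SCN9A, SCN10A and SCN11A encode channels of sensory neurons that carry pain signals. SCN9A lies on chromosome 2 from 166195185 to 166375987 (181 kb, minus strand), in a cluster with SCN1A, SCN2A, SCN3A and SCN7A. It had 1 peak in MYT1L replicates 1, 3 and 4 and none in replicate 2. All 3 fell at the start, in the region from 166375539 to 166376481, with summits within 91 bp of each other and at most 75 bp from the listed start. The folds were 8.09, 5.36 and 9.68, or 7.71 ± 2.18 (SD, n = 3), on 17, 10 and 22 fragments. Replicates 1 and 4 placed it at percentiles 94.5 and 88.5 of their lists and replicate 3 at percentile 57.0. Along the remaining length of SCN9A no library had a peak. Other genes around this cluster did hold peaks: CSRNP3 and TTC21B, between SCN2A and SCN1A, had 7 and 5 MYT1L peaks over the 4 libraries, and XIRP2, beyond SCN7A, had 6. SLC38A11, at the opposite end, had 0.

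SCN11A lies on chromosome 3 from 38845764 to 39051944 (206 kb, minus strand) and had 3, 2, 3 and 2 peaks in MYT1L replicates 1 to 4. Its start held the highest mean fold of the family and the highest fold in replicates 2, 3 and 4, while in replicate 1 the start of SCN9A was higher. The region from 39051721 to 39052531 had folds of 7.74, 7.42, 8.03 and 12.6 in replicates 1 to 4, or 8.94 ± 2.43 (SD, n = 4), on 17, 11, 16 and 34 fragments. Replicates 1, 2 and 3 lay close together and replicate 4 stood above them. These folds stood at percentiles 87.5 to 97.1 of the lists, and the 4 summits fell within 97 bp. This region cannot be given to SCN11A alone. WDR48, which encodes a cofactor of deubiquitinating enzymes, begins at 39052016 on the other side of the SCN11A start. The 4 summits lay 140 to 237 bp before the SCN11A start, all of them beyond the first base of WDR48.

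Inside SCN11A, 2 regions held peaks of 2 libraries each. The region from 38951023 to 38951633 had folds of 4.99 in replicate 1 and 6.13 in replicate 3, and it lay 462 bp before a second listed start of the gene. The region from 39039587 to 39040028 had folds of 4.12 in replicate 1 and 4.93 in replicate 2, and it lay 11.9 kb from a start. A peak of replicate 4 (38932652 to 38932843, fold 4.22) and one of replicate 3 (38932872 to 38933140, fold 5.07) were next to each other without overlapping. SCN10A, the sensory channel gene beside SCN11A (chromosome 3, 38696807 to 38816217), had a single peak, in replicate 1, at 38726774 to 38726994, with a fold of 4.14 on 9 fragments. It lay 67.0 kb from the listed start.

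SCN4A, the channel of skeletal muscle, lies on chromosome 17 from 63938554 to 63972918 and is the shortest of the genes at 34.4 kb. Its single peak, in MYT1L replicate 4, lay outside the gene body, 1.32 kb beyond the higher-numbered end at 63974241 to 63974466, with a fold of 4.84 on 15 fragments. SCN7A, the sodium-sensing relative found in glia and some neurons, lies on chromosome 2 from 166403573 to 166494249. Its start had a peak of replicate 1 with a fold of 4.12 and one of replicate 4 with a fold of 3.69, on 8 and 6 fragments. These are weak peaks of their lists, at percentiles 21.9 and 5.83, and they overlapped in the region from 166494167 to 166494449. Replicates 2 and 3 had no peak there.

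**Figure D2:**
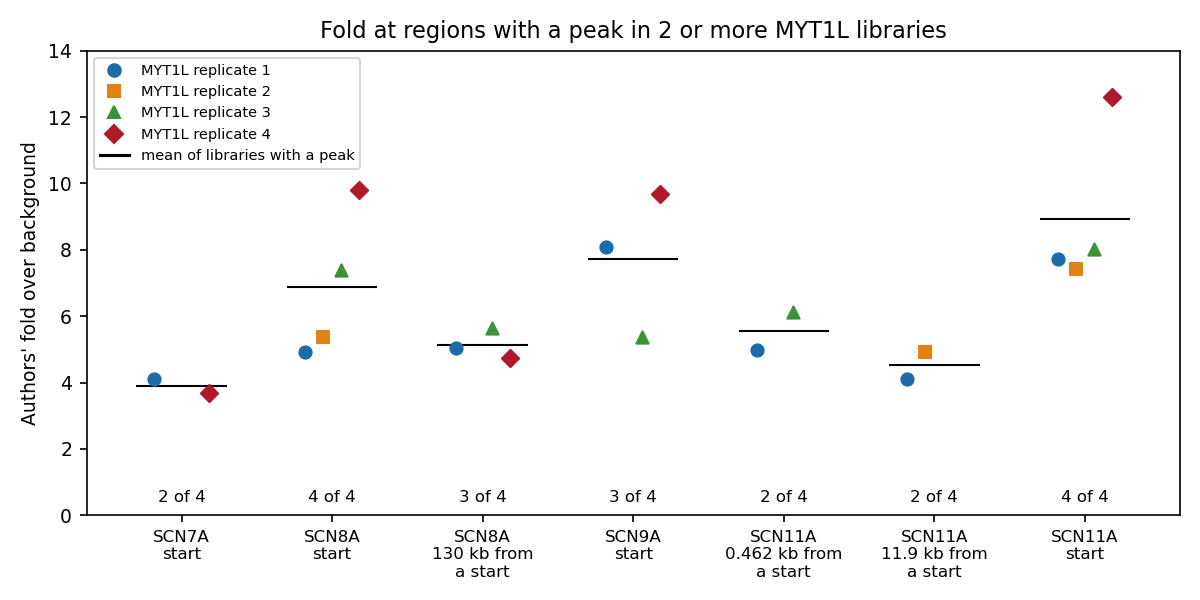
The authors' fold over background at the 7 regions of sodium channel genes with a peak in 2 or more MYT1L libraries. Each symbol is the highest peak of 1 library and the bar is the mean over libraries with a peak; the starts of SCN8A, SCN9A and SCN11A reach 9.68 to 12.6 in replicate 4, while the SCN8A region inside the gene stays between 4.75 and 5.64.

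Across the family, the 28 MYT1L peaks formed 15 regions, of which 8 were marked by 1 library, 3 by 2 libraries, 2 by 3 and 2 by all 4. The share found in 3 or more libraries, 26.7%, was close to the 25.1% of all 49028 regions on chromosomes 1 to 22, X and Y. A region with a peak in at least 3 MYT1L libraries and no IgG peak lay at 3 of the 9 genes (33.3%), against 48.0% of all protein-coding genes and 60.9% of genes of the same length range. With a −log10 q of at least 5 required of each peak, the starts of SCN8A and SCN9A no longer counted and 1 of 9 genes, SCN11A, was left, against 30.6% of all genes. With peaks of all 4 libraries required it lay at 2 of 9, SCN8A and SCN11A, against 25.3% of all genes and 34.3% in the length range. With 2 libraries sufficing, SCN7A joined and 4 of 9 genes had one, against 65.3% and 77.5%. The count was below the background share under each rule on the number of libraries, by least where all 4 libraries were required, and 9 genes give such shares little precision. Regions that also overlapped an IgG peak made no difference here, with 3 of 9 again, against 50.3% of all genes and 63.7% in the length range. Within 1 kb of a listed start, 3 of the 7 genes with a listed start had such a region, close to the 42.2% of all genes and below the 54.1% of genes in the length range. SCN8A was the only one of the 9 genes with 2 regions in at least 3 libraries, which 8.56% of all genes and 12.8% in the length range had.

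By single library, genes of the family with at least 1 peak numbered 6 of 9 in MYT1L replicate 1, against 68.0% of all protein-coding genes and 81.0% in the length range. They numbered 2 in replicate 2 (43.0% and 54.9%), 3 in replicate 3 (57.3% and 70.6%) and 6 in replicate 4 (77.6% and 88.6%). The 6 genes were not the same in replicates 1 and 4: SCN10A was marked in replicate 1 and SCN4A in replicate 4. SCN8A and SCN11A had a peak in all 4 lists and SCN9A in 3. For IgG the background was 1.61% of all genes in replicate 1 and 2.9% in replicate 2 (1.98% and 3.82% in the length range). A peak of either IgG library lay at 0 of the 9 genes, against 4.16% of all genes and 5.45% in the length range.

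The family was sparse in peaks for its length. The 9 genes with their margins span 1.38 Mb. They held 7.26, 2.18, 4.36 and 6.54 peaks per Mb in MYT1L replicates 1 to 4, while all protein-coding genes held 13.0, 6.29, 9.31 and 15.3. The family was thus lower in each of the 4 libraries, with ratios of 0.560, 0.346, 0.468 and 0.426. The mean log2 ratio was -1.17 ± 0.29 (SD, n = 4), a ratio of 0.444 (exact sign-flip permutation test over libraries, two-sided, p = 0.125, the smallest that 4 libraries allow). Against genes of the same length range the ratio was 0.402 (log2 -1.31 ± 0.32, n = 4, exact permutation p = 0.125), and for peaks with a summit over 1 kb from a start it was 0.446 (log2 -1.16 ± 0.40, n = 4, exact permutation p = 0.125). The last 2 comparisons, with genes of the length range and away from starts, were chosen after the data were seen. The length range runs from the shortest member to the longest, and SCN4A alone, at 34.4 kb, sets its lower end. The other members are 90.7 to 222 kb long. Where a gene had no listed start, either of its ends was taken as a start.

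The family most alike in kind, the 10 genes of the voltage-gated calcium channel alpha1 subunits, held 8.66, 4.33, 7.09 and 11.4 peaks per Mb in the same libraries. The sodium channel genes were lower in 4 of 4 libraries, with a ratio of 0.621 (log2 -0.69 ± 0.31, n = 4, exact sign-flip permutation p = 0.125, again the lowest attainable). A region in at least 3 libraries without IgG peak lay at 4 of the 10 calcium channel genes, against 3 of 9 here, counts too small to set the families apart.

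**Figure D3:**
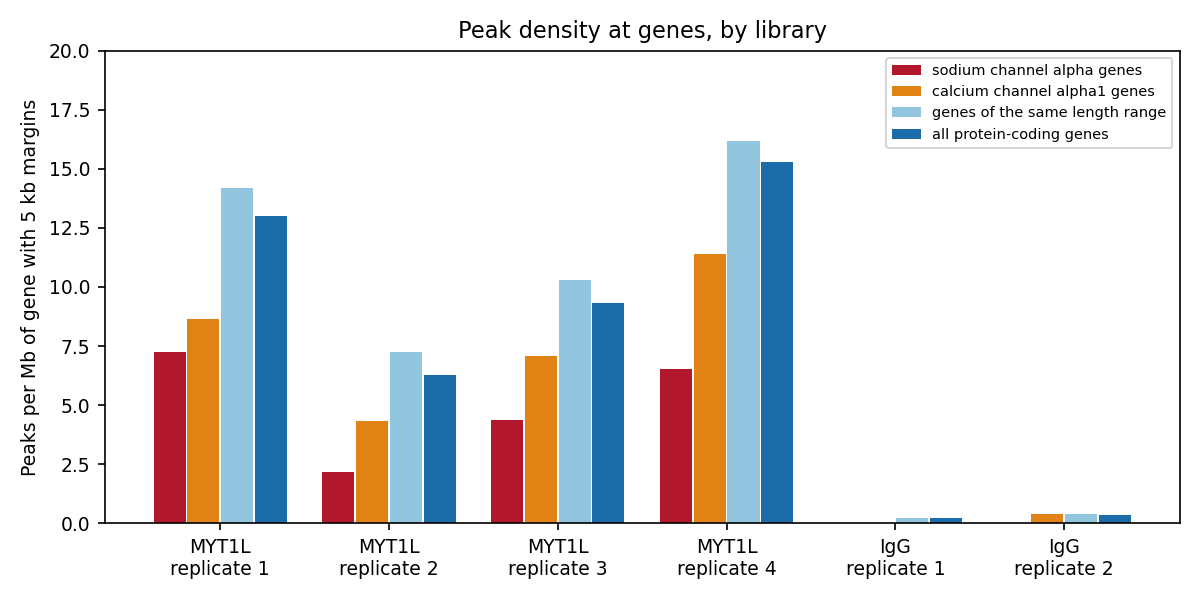
Peaks per Mb of gene with 5 kb margins in each library, for the sodium channel alpha genes, the calcium channel alpha1 genes, protein-coding genes of the sodium channel genes' length range and all protein-coding genes. In each MYT1L library the sodium channel bar, 2.18 to 7.26 peaks per Mb, is the lowest of the 4, and in both IgG libraries it is at 0.

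Peaks with a summit within 1 kb of a start made up 5 of 10, 2 of 3, 4 of 6 and 4 of 9 peaks of the family in MYT1L replicates 1 to 4. For genes without a listed start, in the family and among all genes, either gene end was counted as a start. As shares these were 50% (95% exact binomial interval 18.7% to 81.3%), 66.7% (9.43% to 99.2%), 66.7% (22.3% to 95.7%) and 44.4% (13.7% to 78.8%). The family's start peaks were those at SCN7A, SCN8A, SCN9A and both listed starts of SCN11A. The intervals cover counting error only. Their mean, 56.9% ± 11.5 (SD, n = 4), differed from the 60.5% ± 4.27 (n = 4) of peaks at all protein-coding genes by less than the spread between libraries.

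Starts with reproducible peaks were richer in CpG than those without. RefSeq lists 11 start windows for 7 of the 9 genes, each of 300 bases, from 250 before to 50 after a start. SCN3A and SCN4A are not among them. The ratio of observed to expected CpG was 1.08 at SCN8A, 0.711 at the start of SCN11A with the WDR48 region and 0.704 at SCN9A, with GC contents of 84.0%, 65.7% and 73.3%. These were the 3 windows with peaks of 3 or 4 libraries. In the other 8 windows the ratio ran from 0 to 0.378, and only the window at the outer end of SCN7A, at 0.375, had any peak. The second listed start of SCN11A, at 0.118, and both starts of SCN1A (0.378 and 0.125) and of SCN2A (0.27 and 0.12) had none, nor did the start of SCN10A (0.16).

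The same order held over all protein-coding genes. Of 22199 start windows, 31.6% overlapped peaks of at least 3 MYT1L libraries. The share was 50.4% of windows that were CpG-rich, meaning a ratio of at least 0.6 and a GC content of at least 50%, and 3.32% of the others. Over bins of the ratio up to 1.2 it rose from 0.0334% at ratios below 0.2 to 59.6% at ratios of 1.0 to 1.2. The few windows outside these bins are not shown by ratio. IgG peaks, far fewer, were split in the same direction, with 2.59% of CpG-rich windows and 0.146% of the others overlapping a peak of at least 1 IgG library. The part of CpG content in the result was not tested.

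**Figure D4:**
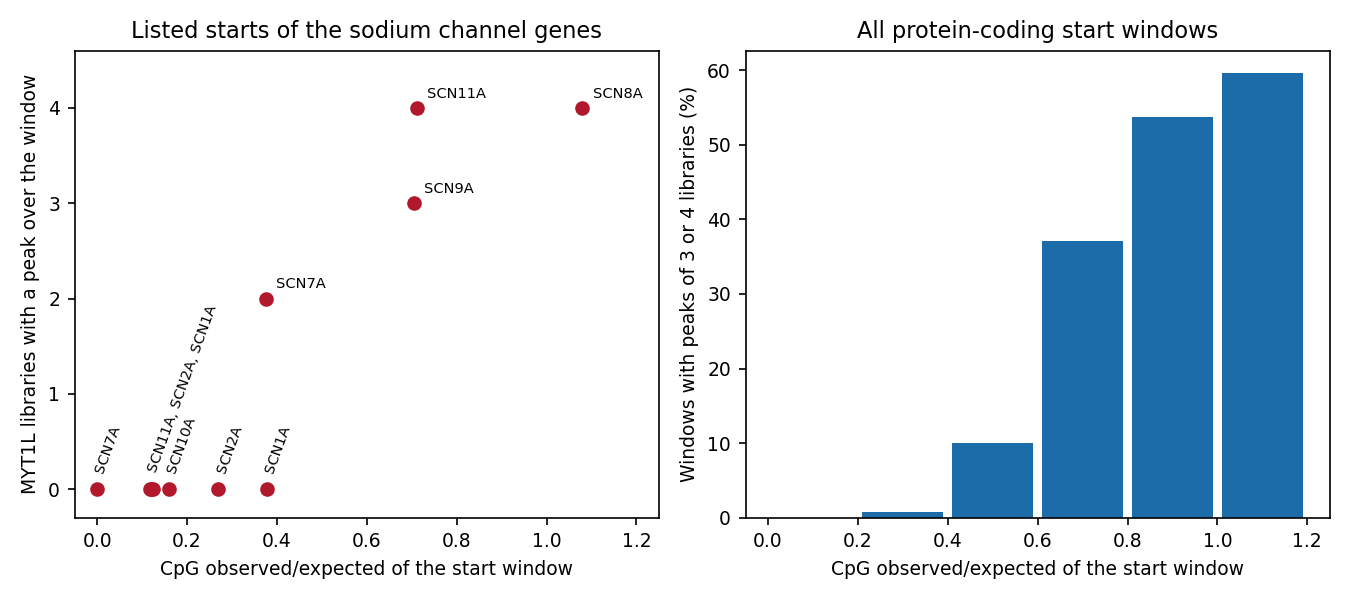
Left, the observed-to-expected CpG ratio of each of the 11 listed start windows of sodium channel genes against the number of MYT1L libraries with a peak over it; the 3 windows above 0.6 have 3 or 4 libraries and those below have 2 or 0. Right, the percentage of protein-coding start windows with peaks of 3 or 4 MYT1L libraries, in bins of CpG ratio up to 1.2, rising to 59.6% in the last bin.

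The zinc fingers of MYT1-family proteins are known to recognize a short core sequence, searched here as AAAGTT and as its shorter form AAGTT, which lies within it, on both strands. In the 3 windows with reproducible peaks neither form was found. AAAGTT occurred 2 times in the inner start window of SCN7A and once in the second start window of SCN11A, neither of which had a peak; AAGTT alone occurred once more in that window of SCN11A and once at SCN10A. Over all protein-coding windows, AAAGTT was found in 10.8% and AAGTT in 30%. Among windows with peaks of 3 or 4 libraries the shares were 5.45% and 19.3%, and among windows without a MYT1L peak 16.5% and 41.7%. The split by CpG content alone was nearly the same, with 6.78% and 21.7% of CpG-rich windows and 16.7% and 42.6% of the others. A match or its lack describes these 300 bases only, and all summits at the SCN8A start lay outside its window.

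The profile most like that of the SCN11A and WDR48 start was sought among the best start regions of other protein-coding genes, by Euclidean distance over the 4 log2 folds. The nearest were MACROD2 and SEL1L2, which share a region on chromosome 20 (13995102 to 13996151, folds 7.64, 8.06, 7.89 and 12.5, distance 0.12), then DDX59 (0.13), RANBP2 (0.14) and AZI2 (0.14). Of these regions, only that of AZI2 overlapped an IgG peak.

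Genes whose products work with the alpha subunits were examined as a list of 17. A region in at least 3 MYT1L libraries without IgG peak lay at 12 of them (70.6%), against 48.0% of all protein-coding genes and 60.9% of those of 34.4 to 222 kb. No test was made of the list, whose genes run from 3.69 to 707 kb and many of which are longer than that range. Each fold given for a partner gene is that of a single region. Where the gene had several, its best one was picked, so the fold does not stand for the others. These regions were not always at a start. Those of FGF14 and ANK2 lay 7617 and 90928 bp from one listed for the gene or from a gene end. Of the 3 beta subunit genes examined, whose products tune gating and adhesion, SCN3B had a region in all 4 libraries (chromosome 11, 123653868 to 123655011, fold 6.64 ± 2.53, SD, n = 4), but it overlapped an IgG peak, and SCN2B and SCN4B had none. The intracellular FGF homologous factors, which bind the channel's tail, had regions at FGF12 (fold 5.65 ± 1.45, n = 3) and FGF14 (9.07 ± 2.61, n = 4), and not at FGF11 or FGF13. All 5 genes of the axon initial segment and node, where the channels are anchored, had one. They were ANK2 (5.78 ± 0.842, n = 4), ANK3 (5.52 ± 1.46, n = 4), SPTBN4 (5.94 ± 0.868, n = 4), NFASC (5.05 ± 0.655, n = 3) and NRCAM (7.75 ± 1.27, n = 4; SD in each case).

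The sodium leak channel, which sets resting excitability, had regions at the gene of its pore, NALCN (fold 7.52 ± 3.89, n = 3), and at those of its auxiliary subunits, UNC79 (8.27 ± 2.84, n = 4) and UNC80 (8.40 ± 2.22, n = 4). Such a region without IgG peak lay at 48.0% of all protein-coding genes and at 60.9% of those of 34.4 to 222 kb. NALCN, UNC79 and UNC80, like NEDD4L, are longer than that range. Among the regulators, NEDD4L, a ubiquitin ligase that removes channels from the membrane, had 5 regions. The region picked as its best (fold 7.27 ± 0.766, n = 4) overlapped an IgG peak and lay 20900 bp from the nearest listed start. PRRT2 had 1 region (4.44 ± 0.742, SD, n = 3), which lay outside the gene body, 4139 bp from it.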

How the data were processed

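CUT&RUN peak lists of 4 MYT1L and 2 IgG libraries, grouped and numbered by their titles, were used. Per the submitters' processing notes, MACS2 and hg38 were used; the aligner, threshold and control are not given in the sources used here. Each deposited peak has a fold over background (a ratio), a −log10 p, a −log10 q and a score that is 10 times the −log10 q. The members and lists were chosen with earlier results of these data known. All 9 genes are named; of the partner genes, those with a region in at least 3 libraries, and the others of a group by name only. Some genes of the partner list are not reported here, and its counts are without them. Gene spans and start sequences are RefSeq (GRCh38.p14). Overlap meant 1 bp, and joined MYT1L peaks formed regions, which differed from bedtools 2.31.1 in 0 cases. Pileups were recovered from fold and −log10 p by MACS formulas, within 0.0002 for at least 99.968% of peaks with a −log10 p up to 200; on simulated peaks 100% of 1463 were recovered. Depth was estimated from them, since total reads are unknown, and thinning was binomial. Python 3.11.15 and scipy 1.17.1 were used. Alternatives were another margin, a stricter q, summits, equal lists, other library numbers and each library left out.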

Additional observations from a re-analysis of the deposited data

Results flagged for a closer look

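The fold of MYT1L replicate 4 at the start region shared by SCN11A and WDR48, 12.6, stood apart from the other 3 libraries, which lay between 7.42 and 8.03. Its gap to the nearest value was 0.882 of the whole range. Chance marks about 1 in 20 groups in this way, and 5 groups of values were looked at. Within its own list this fold stood at percentile 97.1, against 93.0, 87.5 and 93.7 in replicates 1 to 3. Replicate 4 also had the highest fold at the starts of SCN8A (9.79) and SCN9A (9.68). It had the lowest at the SCN7A start (3.69) and at the region of 3 libraries inside SCN8A (4.75). Whether the gap belongs to the site or to the library was not tested.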

How the results depend on the processing

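MYT1L libraries had more peaks at the 9 genes than IgG libraries in all 14 alternatives, with a difference of 1.27 to 8.33 peaks. It was 2.13 and 1.27 when the MYT1L libraries were thinned to IgG replicates 1 and 2. These 2 are expectations for peaks already called, so their direction against the 0 of IgG was fixed in advance. Thinned to the depth of MYT1L replicate 2, replicates 1, 3 and 4 were expected to hold 3.36, 3.62 and 5.16 peaks, against 3 observed in replicate 2. Leaving out 1 library gave a difference of 6.0 to 8.33. Both groups use the replicate numbers 1 and 2. Paired by replicate block, the difference was 6.5 (exact sign-flip permutation test, p = 0.5, n = 2 pairs, the smallest p that 2 pairs allow). Nothing in the labels says that a number marks a shared culture. The density ratio stayed below 1 in all 11 alternatives (log2 -1.63 to -1.05). Regions in at least 3 libraries numbered 4. A minimum −log10 q of 5 left 1, while 2 libraries sufficing gave 7 and all 4 required gave 2, and the number was 4 to 6 without 1 MYT1L library, where 2 of 3 sufficed. Genes with such a region, 3, fell to 1, SCN11A, with the stricter q (30.6% of all genes). They were 3 to 4 without 1 MYT1L library (49.3% to 63.3% of all genes), SCN7A joining without replicate 2 or 3. The share of peaks at starts, 56.9%, was 83.8% with the stricter q and 83.3% with equal lists, both of which leave out weaker peaks, and 53.7% to 61.1% without 1 MYT1L library. Depth limits single peaks: 14 of the 28 rested on 10 fragments or fewer.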
